A study of Drosophila melanogaster with 3 samples.

Results

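The genes described here encode the nuclear subunits of the mitochondrial respiratory chain and ATP synthase of Drosophila melanogaster. They are the 92 nuclear protein-coding genes, of 13945 on the 6 main chromosome arms, whose symbols begin with ND-, Sdh, UQCR, COX, ATPsyn or Cyt-c. Of these, 25 are paralogues whose symbols carry a final L, with or without a digit (the L paralogues), and 67 are main copies. The main copies include both cytochrome c genes and the assembly factor Sdhaf3. The name pattern misses some subunits, which are given apart from the 92. Peaks were those of a ChIP-seq experiment (immunoprecipitated chromatin, sequenced) on the transcription factor shaven (sv), a Pax-family protein known for its roles in the eye and the bristle lineage. There was 1 group of 3 biological replicates, made from whole larvae of mixed sex, in the wandering phase of the third instar. They carried a stably expressed transgene for isoform RD of sv, with GFP fused to its C-terminus. The sample descriptions name an antibody against GFP, while the antibody field names sv, an antigen that the native protein also carries. With no second genotype, stage or treatment, the members are set beside all nuclear protein-coding genes, and no test is given, because genes are not replicates.

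The respiratory chain passes electrons from NADH and succinate through complexes I and II, ubiquinone, complex III and the small carrier cytochrome c to complex IV, where oxygen is reduced. Complexes I, III and IV pump protons across the inner mitochondrial membrane, and ATP synthase, often called complex V, uses the gradient to make ATP. A few of the subunits are encoded in mitochondrial DNA and the rest by nuclear genes, so most of the complexes need output from both genomes. Drosophila carries extra copies of many nuclear subunit genes, several of which are known to be expressed mainly in the testis.

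A peak was assigned to a gene where its summit, the position of highest signal, lay in the gene body or up to 2 kb upstream of it. The sequences under 8 such summits are shown. Cyt-c-d, ND-ASHI, Cyt-c-p, ND-24 and COX5A are among the strongest members, COX5B shares its summit with a paralogue, and ND-23 and SdhC were chosen because their windows hold a motif. Each is 101 bases centred on the summit, 5′ to 3′ on the strand of the gene named, in dm6 coordinates, taken from the NCBI Release 6 assembly. Capitals mark that motif, the DREF site (TATCGATA, searched on both strands). The window given for COX5B is also that of its paralogue COX5BL, because both genes were assigned the same summit.
Cyt-c-d, chr2L:16716341-16716441, plus strand: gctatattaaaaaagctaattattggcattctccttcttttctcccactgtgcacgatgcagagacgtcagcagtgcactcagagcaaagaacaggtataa
ND-ASHI, chrX:6679326-6679426, minus strand: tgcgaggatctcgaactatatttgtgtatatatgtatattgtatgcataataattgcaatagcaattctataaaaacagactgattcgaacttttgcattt
Cyt-c-p, chr2L:16720835-16720935, plus strand: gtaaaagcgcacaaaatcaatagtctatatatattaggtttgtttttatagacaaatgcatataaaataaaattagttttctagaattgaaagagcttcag
ND-24, chrX:17632156-17632256, plus strand: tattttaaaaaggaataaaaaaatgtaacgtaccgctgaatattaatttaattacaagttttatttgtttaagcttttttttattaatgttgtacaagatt
COX5A, chr3R:11819511-11819611, plus strand: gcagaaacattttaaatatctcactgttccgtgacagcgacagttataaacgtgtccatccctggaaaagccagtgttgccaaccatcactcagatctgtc
COX5B, chr2L:6557498-6557598, plus strand: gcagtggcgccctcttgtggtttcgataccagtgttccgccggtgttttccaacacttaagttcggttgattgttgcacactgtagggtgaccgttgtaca
ND-23, chr3R:15837344-15837444, minus strand: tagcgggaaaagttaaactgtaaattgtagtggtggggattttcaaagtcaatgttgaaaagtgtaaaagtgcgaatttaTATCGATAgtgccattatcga
SdhC, chr3R:11210121-11210221, minus strand: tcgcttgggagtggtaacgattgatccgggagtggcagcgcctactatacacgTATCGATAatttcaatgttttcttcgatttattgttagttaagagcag

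The next sequences are 101 bases centred on the first annotated start of the gene, from the same assembly. Capitals mark motif 1, a core promoter element bound by the factor M1BP, which reads on either strand. The starts of Cyt-c-p, ND-B17, COX5A, COX7B and COX5B hold it. The start of COX5BL, an L paralogue, is shown last for contrast and has no match in this window.
Cyt-c-p, chr2L:16719882-16719982, plus strand: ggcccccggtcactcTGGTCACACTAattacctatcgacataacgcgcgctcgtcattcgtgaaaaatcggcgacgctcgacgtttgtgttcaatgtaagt
ND-B17, chr2L:15751028-15751128, minus strand: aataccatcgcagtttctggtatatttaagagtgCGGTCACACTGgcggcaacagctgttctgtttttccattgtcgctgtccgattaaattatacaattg
COX5A, chr3R:11819309-11819409, plus strand: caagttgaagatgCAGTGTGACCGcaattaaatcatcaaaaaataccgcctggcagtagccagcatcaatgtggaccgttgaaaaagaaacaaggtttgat
COX7B, chr3L:17425427-17425527, plus strand: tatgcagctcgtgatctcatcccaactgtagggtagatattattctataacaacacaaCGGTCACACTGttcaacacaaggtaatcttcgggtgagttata
COX5B, chr2L:6557750-6557850, plus strand: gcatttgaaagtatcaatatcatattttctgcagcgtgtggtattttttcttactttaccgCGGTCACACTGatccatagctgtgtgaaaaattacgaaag
COX5BL, chr2L:6559381-6559481, plus strand: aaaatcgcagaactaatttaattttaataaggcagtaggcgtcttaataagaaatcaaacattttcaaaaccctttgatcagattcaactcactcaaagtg

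Among the 92 members, 32 had a summit in the optimal peak set, which is 34.8%, against 26.9% of all nuclear protein-coding genes. The optimal set is the 3823 peaks that passed the authors' threshold for reproducibility between replicates. At each member with such a summit, its rank in this set was also its rank in the pooled list. The strongest 3823 pooled peaks gave the same counts of L paralogues, main copies and all genes. A peak of the set thus need not be strong in each replicate. The subgroups stood on either side of the background. An optimal summit was found at 3 of 25 L paralogues (12.0%) and at 29 of 67 main copies (43.3%). Within 500 bp of a start of their own, summits lay at 1 L paralogue (4%), at 22 main copies (32.8%), at 23 members in all (25.0%) and at 19.5% of all genes. Genes of these families are short, with a median span of 758 bp for L paralogues, 1194 bp for main copies and 2166 bp for all genes, and a longer gene can hold a summit more easily. Among genes that span at most 4 kb, a limit chosen after the values were seen, 2 of 23 L paralogues (8.70%) and 27 of 61 main copies (44.3%) had an optimal summit, against 20.7% of all genes of that length.

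The same order of the groups was found in each replicate on its own. Peaks were ranked within each list by the authors' signal value, and the strongest 3823 of each replicate were used. L paralogues with such a summit made up 8.00%, 12.0% and 12.0% in replicates 1, 2 and 3, or 10.7% ± 2.31 (SD, n = 3). Main copies made up 37.3%, 41.8% and 44.8%, or 41.3% ± 3.76 (SD, n = 3), and all genes 25.6%, 26.5% and 27.5%, or 26.5% ± 0.976 (SD, n = 3). The ranges of the L paralogues, the main copies and all genes did not overlap over the 3 replicates. These ranges give the spread between libraries for the same genes, not the uncertainty of a contrast between sets of genes. The optimal set was made from the same replicates, so their lists are not separate support. The count of members fell most without replicate 2. Where only optimal peaks found in the strongest peaks of both other replicates were counted, 20 members (21.7%) remained without replicate 2, against 20.5% of all genes. Of these, 1 was an L paralogue (4%) and 19 were main copies (28.4%).

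**Figure D1:**
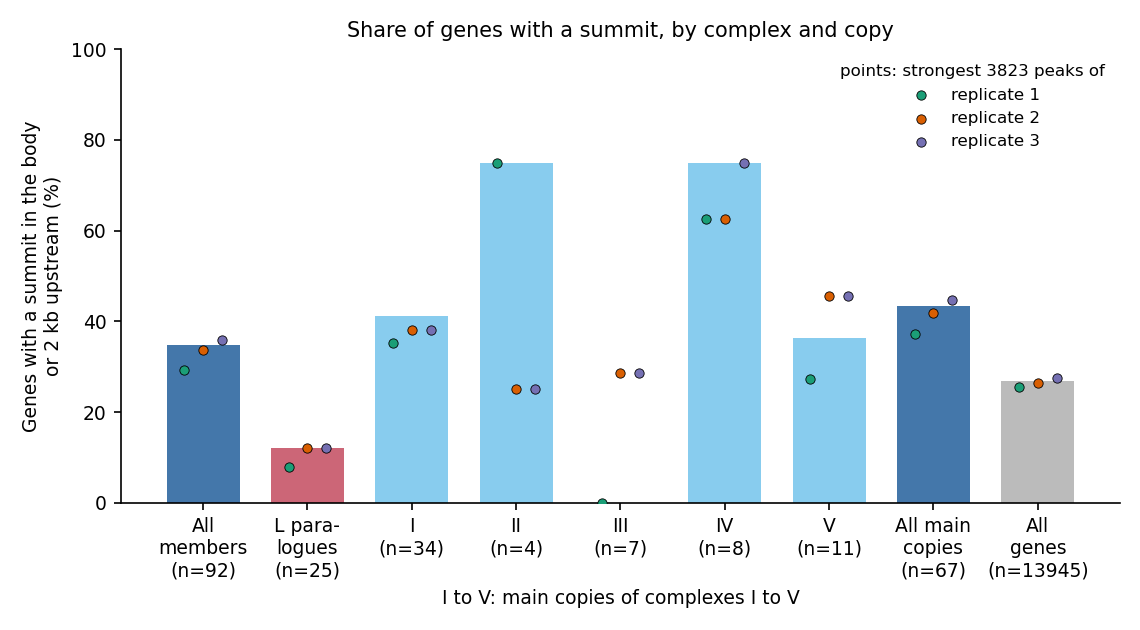
Percentage of genes with an optimal summit in the body or 2 kb upstream (bars) and with a summit among the strongest 3823 peaks of each replicate (points), by group of genes, with the number of genes in each group. Of the 5 complexes, the main copies of IV (8 genes) and II (4 genes) stand highest at 75.0%. The 7 of complex III are at 0, and all genes are at 26.9%. Shares of so few genes are imprecise.

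The higher share of the main copies came from peaks of middle and low rank. Among the strongest 1000 pooled peaks, 4% of L paralogues and 8.96% of main copies had a summit, against 9.26% of all genes. Among the strongest 2000 the values were 8.00% for L paralogues, 20.9% for main copies and 16.6% for all genes. Further down the pooled list, which has 30000 peaks and includes background, the groups moved further apart. Over the strongest 10000 peaks a summit lay at 20% of L paralogues and 76.1% of main copies, against 46.1% of all genes. Over the whole list it lay at 48.0% of L paralogues and 95.5% of main copies, against 71.6% of all genes. The median rank of the best summit was 2000.5 for the 32 members and 1574 for all genes with a summit. For the 23 members with a summit within 500 bp of an own start, the median rank was 1728. The limit of the optimal set cut through a run of members. ND-20 at rank 3803, with a signal of 72.9, was the last inside, and ND-B18, an accessory subunit of complex I, stood at pooled rank 3839 just outside.

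**Figure D2:**
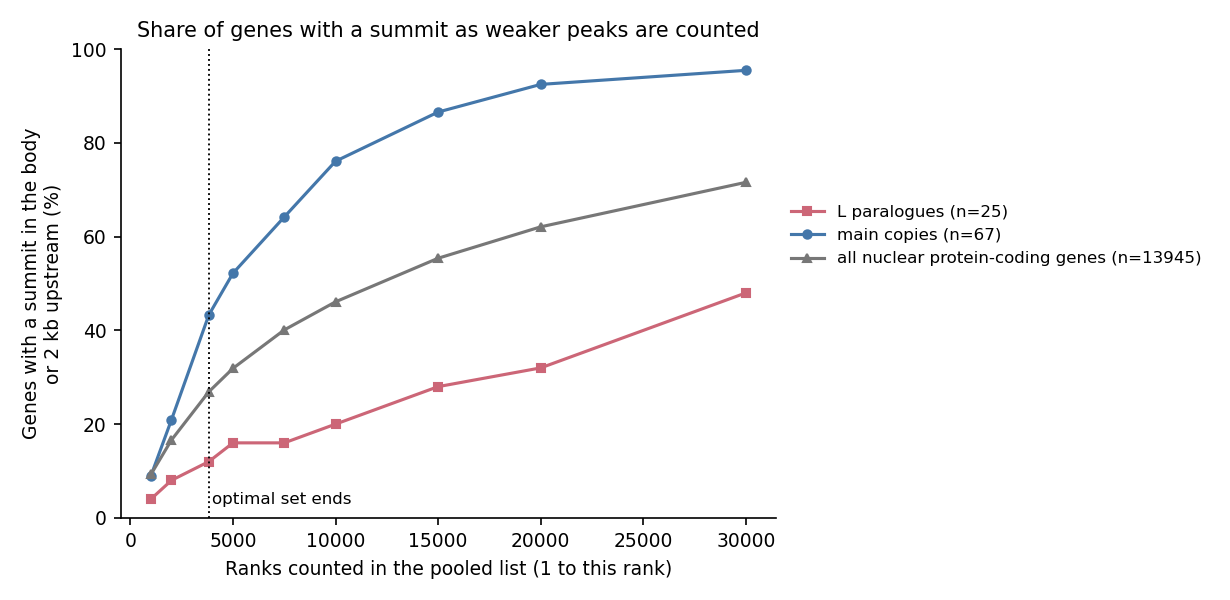
Percentage of genes with a summit in the body or 2 kb upstream as more of the pooled peak list is counted, for L paralogues, main copies and all nuclear protein-coding genes. The main copies start level with all genes at rank 1000 (8.96% against 9.26%) and reach 76.1% against 46.1% at rank 10000, while the L paralogues stay lowest at every rank shown.

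The strongest peaks of the family lay at the 2 cytochrome c genes, which sit next to each other on 2L. Cyt-c-d, the form needed in the male germ line, had the summit at rank 177 with a signal of 362, and its ranks in replicates 1, 2 and 3 were 273, 121 and 152. This summit lay in an intron 430 bp downstream of the nearest start of Cyt-c-d and 196 bp from the start of CG31808. Cyt-c-p, the main form in the soma, had a summit of its own at rank 261 with a signal of 309, and ranks of 282, 278 and 310. It lay in an intron 953 bp downstream of the start of Cyt-c-p, with the next other start, that of CG31808, 4690 bp away. Both peaks were within the strongest 310 of every replicate. Cchl, the lyase that attaches haem to cytochrome c, shared a summit at rank 1728 with ND-42.

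In complex I, the NADH dehydrogenase, 14 of 34 main copies (41.2%) and 0 of 6 L paralogues had an optimal summit, against 26.9% of all genes. Of the 7 nuclear genes for core subunits, which carry the redox centres and are conserved from bacteria, 4 had one, as did 10 of the 27 other main copies. The strongest was at ND-ASHI, an accessory subunit, at rank 225 with a signal of 327 and replicate ranks of 349, 242 and 129. Its summit lay 258 bp upstream of ND-ASHI and 264 bp upstream of the nearest start of Fum1, in an intron of another Fum1 transcript. Fum1 encodes fumarase of the tricarboxylic acid (TCA) cycle, so 1 peak was assigned to a gene of each pathway. ND-MWFE, a small accessory subunit, followed at rank 523, with 482, 1034 and 471 in the replicates. Its best summit was 19 bp from a start of the peptidase gene TppII and 202 bp upstream of its own. A second optimal summit of ND-MWFE, at rank 3617, lay 1 bp downstream of its own start and 222 bp from that of TppII. The replicate summits matched to this second summit had the same ranks as those of the best. ND-24, a core subunit with an iron-sulfur cluster, had rank 720 and replicate ranks of 712, 956 and 814, at 115 bp upstream of its nearest start and in an intron of a longer transcript. The best peaks of these 3 genes were among the strongest 1034 of each replicate.

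The other core subunits with a summit stood lower. ND-51, which binds the flavin that takes electrons from NADH, had rank 1915 and replicate ranks of 1969, 2012 and 1782, a narrow spread, at 97 bp upstream of its start. ND-23, an iron-sulfur subunit close to the ubiquinone site, had rank 3179, with 3461, 5202 and 2470 in the replicates, so it was outside the strongest 3823 in replicate 2. ND-20, its neighbour in the complex, had 4075, 2289 and 5854 and was inside only in replicate 2. The core subunit genes ND-75, ND-49 and ND-30 had no optimal summit.

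Among the accessory subunits, ND-SGDH had rank 1514 and replicate ranks of 1722, 1488 and 1165. ND-42 had rank 1728, but no summit lay within 200 bp in replicate 2, where the nearest was 212 bp away at rank 1010. A second optimal summit of ND-42, at rank 1824 and 28 bp upstream of its start, had 2450, 1010 and 2887, so all 3 replicates had a strong peak in the space between ND-42 and Cchl. ND-B17 at rank 2065, ND-B16.6 at 2085, ND-MNLL at 2179, ND-B14 at 2623 and ND-B22 at 2843 filled the middle of the range. ND-15, at rank 3769 with 4205, 7120 and 3940, was in the strongest 3823 of no replicate. Its summit lay 3228 bp downstream of its start, over a coding exon of CG4822, inside an annotated span of 41305 bp. The 20 main copies of complex I without an optimal summit were ND-13A, ND-13B, ND-18, ND-19, ND-30, ND-39, ND-49, ND-75, ND-ACP, ND-AGGG, ND-B8, ND-B12, ND-B14.5A, ND-B14.5B, ND-B14.7, ND-B15, ND-B17.2, ND-B18, ND-MLRQ and ND-PDSW. Of these, ND-19, ND-AGGG and ND-B14.5A had no summit anywhere in the pooled list.

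**Figure D3:**
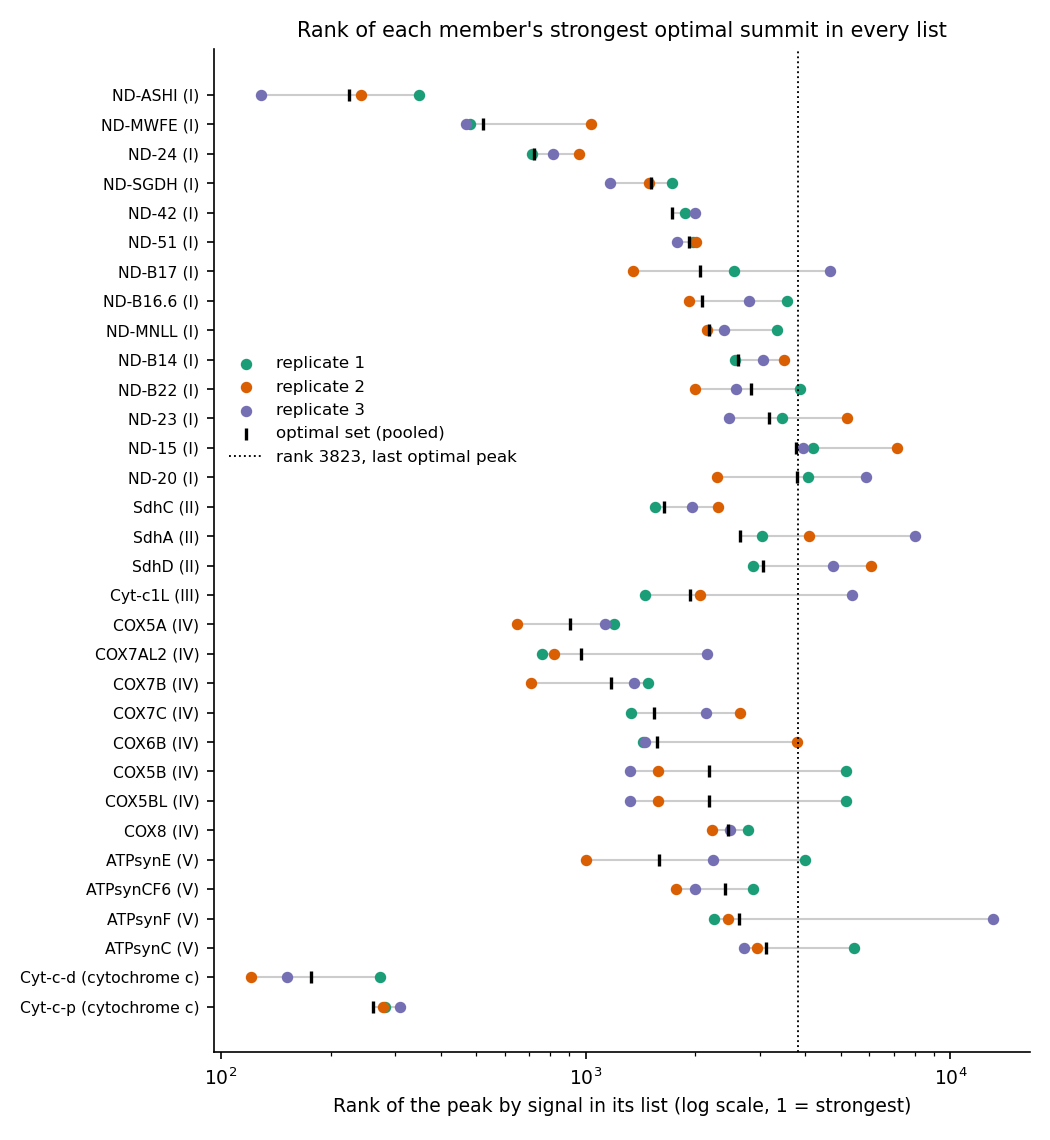
Rank of the strongest optimal summit of each of the 32 members in the optimal set (black bars) and in each replicate list (points), on a log axis, grouped by complex, with the rank of the last optimal peak dotted. The cytochrome c genes and ND-ASHI lie furthest left in every list, and ATPsynF shows the widest spread, with 2246, 2457 and 13065.

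Complex II, succinate dehydrogenase, had a summit at 3 of 4 main copies (75.0%) and at 0 of 3 L paralogues, against 26.9% of all genes, and most of these peaks were weak. SdhC, a membrane anchor, had the strongest, at rank 1637 with 1547, 2310 and 1951 in the replicates, 322 bp upstream of its start and 76 bp from that of Tctp. SdhA, the flavoprotein that oxidises succinate, had rank 2645 with 3048, 4101 and 7995, and its summit was 224 bp from the start of cer and 1025 bp upstream of its own. SdhD, the other membrane anchor, had rank 3060 with 2884, 6063 and 4768. Both SdhA and SdhD were in the strongest 3823 of replicate 1 only. Whichever replicate was left out, 1 main copy of complex II remained (25.0%), near the 20.4% to 20.7% of all genes. SdhB, the iron-sulfur subunit, had its best pooled summit at rank 11854, and the assembly factor Sdhaf3 at 5509.

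Complex III, which passes electrons from ubiquinol to cytochrome c, had an optimal summit at 0 of 7 main copies, against 26.9% of all genes. With only 7 genes at that share, the 0 says little. Cyt-c1, UQCR-C1, UQCR-C2, UQCR-Q, UQCR-6.4, UQCR-11 and UQCR-14 all had weaker summits in the pooled list, the best at UQCR-C2 with rank 4285 and the last at UQCR-C1 with rank 24420. In single replicates some reached the strongest 3823. UQCR-14 did so in replicates 2 and 3, with best ranks of 3257 and 2078 against 13341 in replicate 1. Cyt-c1, the subunit that hands electrons to cytochrome c, did so in replicate 2 alone (2375), and UQCR-C2, a core protein, in replicate 3 alone (3404). The share of the 7 in replicates 1, 2 and 3 was 0, 28.6% and 28.6%, against 25.6%, 26.5% and 27.5% of all genes. Their median pooled rank was 8232, against 4278 for all main copies and 6149 for all genes with a pooled summit. The L paralogue Cyt-c1L was the 1 complex III gene of the name pattern with an optimal summit. Of 2 complex III subunits outside the pattern, RFeSP, the Rieske iron-sulfur protein, had a summit 1800 bp upstream at rank 2487, with 2428, 1930 and 3136 in the replicates, and ox had none.

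Complex IV, cytochrome c oxidase, had a summit at 6 of 8 main copies (75.0%) and 2 of 8 L paralogues (25.0%), against 26.9% of all genes. With only 8 genes in each group, these shares are imprecise. A start on the opposite strand within 500 bp upstream was found for 6 of the 8 main copies (75.0%), against 26.4% of all genes. Among all genes with such a neighbour, 45.4% had an optimal summit. The part of the neighbour in the count for complex IV was not tested. The main copies' share was 62.5%, 62.5% and 75.0% in the replicates, or 66.7% ± 7.22 (SD, n = 3), above the 26.5% ± 0.976 of all genes in each replicate. COX5A had the strongest summit of these main copies, at rank 905 with 1199, 647 and 1128, in the 5′ UTR of 1 transcript and 38 bp upstream of the start of another. COX7B followed at rank 1174 with 1484, 708 and 1356, at 103 bp upstream. COX7C was at rank 1540 with 1328, 2648 and 2141, but its summit lay 1939 bp upstream, in an intron of oys. COX5A and COX7B had a summit in the strongest 3823 of every replicate. At COX7C the matched summit of replicate 2, at rank 2648, fell outside the gene's assignment window, so the gene is not counted in the share for that replicate. COX6B was at rank 1570 with 1440, 3807 and 1452, at 38 bp from its own start and as far from that of CG18809. COX5B was at rank 2182 with 5171, 1583 and 1320, and COX8 at rank 2464 with 2785, 2217 and 2484. COX4 and COX7A had none, with best pooled ranks of 7959 and 14384. Of the complex IV subunits under other names, cype (the COX6C subunit) had a summit at rank 1543 with 1776, 1025 and 2868. levy, the COX6A subunit, named after its values were seen, had one at rank 937 with 1487, 638 and 1220.

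ATP synthase had a summit at 4 of 11 main copies (36.4%) and at 0 of 4 L paralogues, against 26.9% of all genes. ATPsynE, a small membrane subunit, led at rank 1589 with 4004, 1000 and 2230, in its own 5′ UTR at 44 bp downstream of the start. ATPsynCF6, a stalk subunit, had rank 2408 with 2883, 1768 and 1997, and was the 1 of the 4 in the strongest 3823 of all replicates. ATPsynF, a membrane subunit, had rank 2634 with 2246, 2457 and 13065, and ATPsynC, which forms the rotor ring, had rank 3117 with 5459, 2947 and 2719. The count for the main copies was 1 of 11 (9.09%) without replicate 2, against 20.5% of all genes, and 2 of 11 (18.2%) without replicate 3, against 20.7%. The complex thus stood above the background with all 3 replicates and below it without either of these. ATPsyndelta at pooled rank 4015, ATPsynB at 4270, ATPsynD at 4418 and ATPsynbeta at 5095 lay just outside the set, and each was among the strongest 3823 peaks of a single replicate. ATPsynG, ATPsynO and ATPsyngamma also had no optimal summit. ATPsynbeta, the catalytic subunit, and ND-49 lie on chromosome 4, where 8.75% of all genes had a summit. blw, which encodes the alpha subunit and was named after its values were seen, had a summit 151 bp upstream at rank 369 with 456, 275 and 603. That rank is stronger than those of the 11 main copies of the name pattern. At sun, the main copy of ATPsynepsilonL and also outside the pattern, there was no optimal summit, and the best pooled rank was 21447.

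The L paralogues were set against their main copies in 25 pairs, which involve 22 main copies, 3 of them (levy, cype and sun) with names outside the pattern. The paralogue alone had an optimal summit in 2 pairs, the main copy alone in 11, both in 1 and neither in 11. Over the whole pooled list the paralogue held the stronger summit in 3 pairs and the main copy in 20. COX7AL2 had rank 970 with 759, 817 and 2157, in its own 5′ UTR at 490 bp downstream of a start, while its main copy COX7A was at pooled rank 14384. Cyt-c1L had rank 1936 with 1458, 2053 and 5382, at 686 bp upstream, and its main copy Cyt-c1 was at 8105. COX5BL had the summit of COX5B, its neighbour on 2L, 1883 bp upstream of COX5BL, 252 bp upstream of COX5B and 46 bp from the start of IFT52, an intraflagellar transport gene. The peak at COX7AL2 was the 1 optimal summit within 500 bp of the start of an L paralogue. The other 22 paralogues had no optimal summit, and 13 of them had none in the pooled list, against 3 main copies. In 7 of the 11 pairs where the main copy alone had an optimal summit, the paralogue had no pooled summit.

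Best summits lay mostly upstream of the genes and close to their starts, as they did over all genes with a summit. Of the 32, 26 (81.2%) were upstream of the nearest own start, against 79.9% of all genes with a summit, and 6 were downstream. The median distance was 227 bp for members and 240 bp for all genes with a summit, and 18 members (56.2%) had the summit within 300 bp upstream, against 50.8%. By annotation, 23 lay upstream of the gene, 5 in a 5′ UTR and 4 in an intron. The summit was nearest to a start of the member itself for 19 members, with a tie for ND-MNLL and COX6B, and nearest to the start of another gene for 13. The share nearest to an own start was 59.4% for members and 61.2% for all genes with a summit. These 13 were ND-15, ND-23, ND-42, ND-B14, ND-B16.6, ND-MWFE, ND-SGDH, SdhA, SdhC, COX5B, COX5BL, ATPsynCF6 and Cyt-c-d. The neighbours nearest to them include spn-E, a piRNA pathway helicase 25 bp from the summit of ND-23, and Cchl, 24 bp from that of ND-42. The summit of ND-B16.6 was 101 bp from the start of kdn, the citrate synthase gene, and 1982 bp from its own. For 8 members the summit was over 900 bp from an own start.

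**Figure D4:**
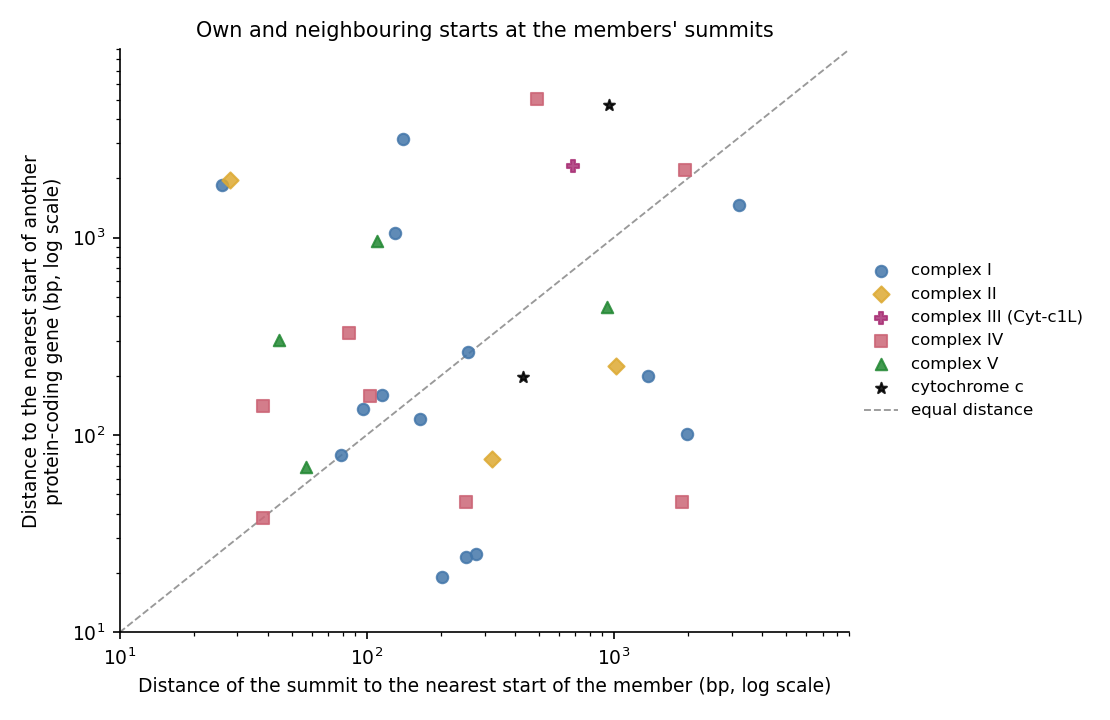
Distance from the best summit of each of the 32 members to the member's nearest own start and to the nearest start of another protein-coding gene, on log axes in bp. Points are coloured by complex. The 13 below the line of equal distance lie closer to the other gene, and the point furthest right is ND-15, 3228 bp from its own start.

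Head-to-head neighbours were common among the main copies. A start on the opposite strand within 500 bp upstream was found for 3 of 25 L paralogues (12.0%) and 32 of 67 main copies (47.8%), against 26.4% of all genes. Among genes with such a neighbour, 0 of 3 L paralogues, 17 of 32 main copies (53.1%) and 45.4% of all genes had an optimal summit. Among genes without one, 3 of 22 L paralogues (13.6%), 12 of 35 main copies (34.3%) and 20.3% of all genes had a summit. The main copies were higher than all genes in both arrangements. The L paralogues without such a neighbour were nearer to all genes of that arrangement (13.6% against 20.3%) than L paralogues were to all genes together (12.0% against 26.9%). The part of the neighbour in the members' count was not tested. By arm, 6 of 13 members on X, 9 of 18 on 2L, 5 of 17 on 2R, 3 of 21 on 3L, 9 of 21 on 3R and 0 of 2 on chromosome 4 had a summit. The members stood above all genes of the arm on X (46.2% against 26.4%), 2L (50% against 26.8%), 2R (29.4% against 24.6%) and 3R (42.9% against 28.3%), and below them on 3L (14.3% against 28.6%).

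The optimal set came from a reproducibility threshold on these same replicates, so recurrence is given as a description. The 32 members had 31 distinct best summits, and 30 of these (96.8%) had a summit within 200 bp in all 3 relaxed lists of 30000 peaks, against 96.6% of all optimal summits. In the strongest 3823 of each list, 18 (58.1%) were found in all 3 replicates, against 60.6% of all optimal summits, 9 in 2, 3 in 1 and 1 in none. Spearman's correlation of the ranks, given as a description over summits that share libraries, was 0.561 for replicates 1 and 2 (30 summits), 0.639 for 1 and 3 (31 summits) and 0.694 for 2 and 3 (30 summits). The worst rank of a summit was a median of 2.05 times its best, and 5.82 times at ATPsynF. Members whose ranks differ by less than that median factor differ by no more than a typical summit does between replicates.

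Motif shares in the promoters of the L paralogues and the main copies were set beside those of all genes. In the window from 250 bases before to 50 after the first start, 8 motifs were counted on both strands. Motif 1 was in 0 of 25 L paralogues and 14 of 67 main copies (20.9%), against 4.50% of all genes. With 25 promoters, 0 matches is near that background and is not a result about the L paralogues. It lay within 50 bp of the start in 11 of the 14 (78.6%), including the COX7B, COX5B, ND-B17, COX5A and Cyt-c-p starts printed above, and in 75.8% of all genes that hold it, so the position was near the background. Among genes with a summit within 500 bp, motif 1 was in 6 of 23 members (26.1%) and in 6.63% of all genes. In the 101 bases at the summits it was in 0 of 31 for the members and in 0.889% of all optimal summits. At a background that low, no match among 31 windows is not a result about the members. The DREF site was in 0 of 25 L paralogues, also too few promoters for a result, and in 9 main copies (13.4%), against 9.37% of all genes. It was at 2 of the 31 summits (6.45%), against 2.01% of all, too few matches for a result about the members. The 2 summits, at ND-23 and SdhC, also lie beside spn-E and Tctp.

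The GAGAG repeat was in 11 L paralogues (44.0%) and 12 main copies (17.9%), against 29.8% of all genes. With 25 promoters, the share of the L paralogues is imprecise, and the differences from all genes were not tested. The NRG element, reported upstream of many Drosophila genes for mitochondrial proteins, was in 0 of 92 members and 0.882% of all promoters. The NRF-1 type core (GCGCANGC), after the factor that controls such genes in mammals, was in 1 L paralogue (COX6AL) and 0 main copies, against 3.56% of all promoters. A Pax2 core (GTCACGC) was in the promoter of ATPsynbeta alone, which had no optimal summit, and at 0 of 31 summits, against 1.51% of all promoters and 0.366% of all optimal summits. At backgrounds this low, the counts of these 3 motifs are not results about the members. The Ets core (CCGGAA) was in 1 L paralogue (4%) and 3 main copies (4.48%), and the E-box (CACGTG) in 2 (8.00%) and 3 (4.48%), against 6.81% and 4.24% of all promoters. Over all promoters, 34 pairs of different motifs overlapped. The members' summit windows had a median GC content of 37.6%, against 33.7% for all optimal summits.

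**Figure D5:**
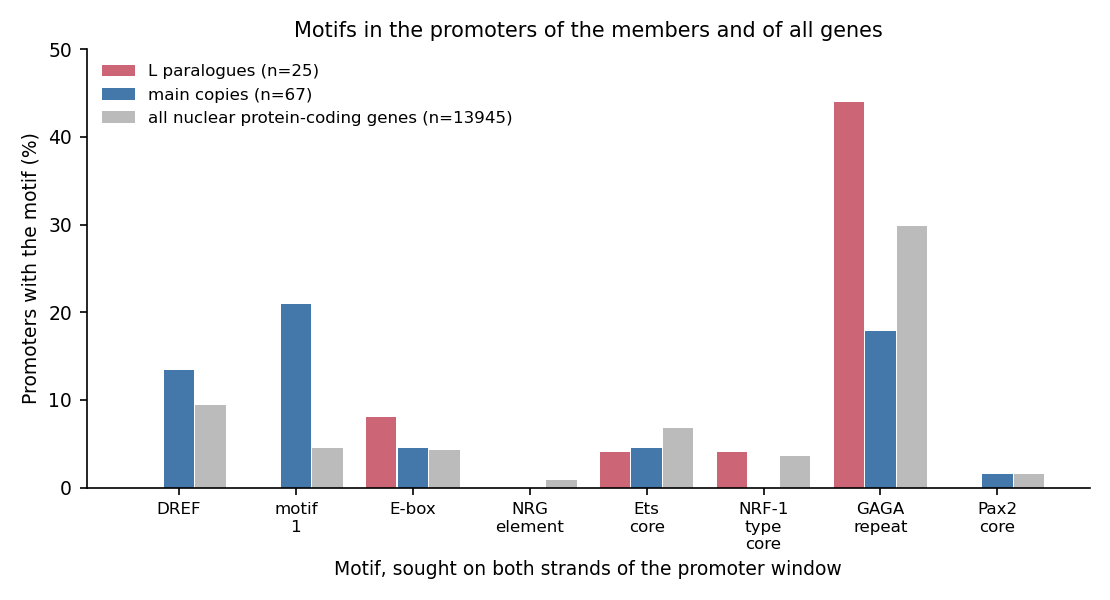
Percentage of promoters (250 bases before to 50 after the first start) that hold each motif, for L paralogues, main copies and all nuclear protein-coding genes. Motif 1 stands at 20.9% in the main copies against 4.50% of all genes, and its 0 in the 25 L paralogues is near that background. The GAGA repeat stands at 44.0% in the L paralogues and 17.9% in the main copies against 29.8%, and with 25 L paralogues their share is imprecise.

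Other genes tied to mitochondria or their control differed by list, against 26.9% of all genes. Over 6 lists with 69 genes found in the annotation, 28 had an optimal summit (40.6%), and Fum1 and Cchl count the peaks of ND-ASHI and ND-42 again. The TCA cycle and pyruvate dehydrogenase list had 9 of 19 (47.4%), led by Fum1 at rank 225, shared with ND-ASHI, Idh3g, an isocitrate dehydrogenase subunit, at 333 with 310, 331 and 336 in the replicates, and mAcon1, aconitase, at 772. Assembly factors had 6 of 12 (50%), with Cox17, a copper chaperone for complex IV, at rank 727 and the adjacent genes sloth1 and sloth2 sharing a summit at 749. Subunits that the pattern misses had 2 of 4 (50%), which were cype and RFeSP. Regulators, a list that also holds broad factors such as Myc and CrebA, had 6 of 11 (54.5%), with crp, a helix-loop-helix factor, at rank 272 (411, 297 and 221) and ERR, the oestrogen-related receptor that controls glycolytic genes in larvae, at rank 385 (442, 448 and 307). clu, needed for mitochondrial function, was at 1624. Of the same list, ewg, Ets97D, srl, Max and Pink1 had no optimal summit. Maintenance and expression of mitochondrial DNA had 3 of 12 (25.0%), with mtSSB at 1192, mtDNA-helicase at 1838 and mTerf5 at 3509. Carriers and import had 2 of 11 (18.2%), Mpc1 at 2133 and Tim10 at 2946. The genes for mitochondrial ribosomal proteins, a further large nuclear family, had 34 of 73 (46.6%), so the share of the main copies, 43.3%, was not particular to them.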

How the data were processed

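Peak lists of anti-GFP ChIP-seq from 3 biological replicates were used in dm6. Per the file manifests, the authors deposited an optimal set passing the irreproducible discovery rate, a pooled relaxed list and a relaxed list per replicate, called against a control that was not analysed here. The deposited signal value is the authors' own and ranked peaks within a list only. The deposited summit offset, another column of the authors' files, gave summits. The aligner was not given in the sources used here, nor was the peak caller. The lists give no read depth, so the precision it sets is unknown. The dm3 lists were not used.

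Summits were assigned to genes of Ensembl release 115 (BDGP6.54), whose coordinates are those of dm6 and NCBI Release 6, with Python 3.11.15, pandas 2.3.3, numpy 2.4.6 and matplotlib 3.10.9. Assignment was checked on simulated data. A summit was matched in a replicate within 200 bp. The genes named were the 20 strongest members, the 3 strongest per complex, L paralogues with a summit and their main copies, main copies without one, members nearest to another gene's start, and up to 3 genes per list. Regulators without a summit were named as well. Members and lists were chosen with earlier results of these data known. Of the listed names, 6 had no match. Other distances, the stronger part of the optimal set (ranks 1 to 1911), other numbers of replicate peaks and leaving out each replicate were tried. The limit of 4 kb and a strict reading of the final L were added after seeing the data.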

Additional observations from a re-analysis of the deposited data

How the results depend on the processing

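Of the recomputed values, 46 stayed within 1.5 times of the reported count, or within the replicate spread, and 20 moved. In the stronger part of the optimal set, cut at its middle rank, 14 members had a summit (15.2%, against 16.0% of all genes), of which 1 was an L paralogue and 13 were main copies (19.4%). Complex I then had 5, complex II 1 and complex V 1, and 9 members had their best summit nearest to their own start. Within 500 bp of an own start, 1 L paralogue had a summit, and the median rank of the members' best summits was 1728. The mean replicate share of members was 15.6% (all genes 15.9%) with as many peaks of each replicate as that part holds and 83.7% (all genes 72.9%) with the whole relaxed lists. Leaving out each replicate in turn, the counts ran from 20 to 24 members, 1 to 2 L paralogues, 19 to 22 main copies, 1 to 1 for complex II, 1 to 3 for complex V and 11 to 15 members nearest to their own start, and the mean replicate share from 31.5% to 34.8%. Those counts were made on 2591 to 2710 optimal peaks, fewer than the whole set. Complex III had 0 of 7 main copies under each alternative, against 16.0% to 24.4% of all genes. Each of these alternatives narrowed the window or the optimal peaks counted, so the 0 could not rise and shows nothing further. With only symbols that end in L as paralogues, 3 of 22 L paralogues (13.6%) and 29 of 70 main copies (41.4%) had a summit, against 26.9% of all genes. Read depth was unknown, so a weak peak cannot be told from one that deeper libraries would rank higher. No paired analysis was possible because there is 1 group of samples.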

Other observations

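Among the 60 members without an optimal summit, 12 had a summit among the strongest 3823 peaks of at least 1 replicate, 11 of them in 1 replicate and UQCR-14 in 2. COX7CL was the L paralogue among them, with best ranks of 5943, 6895 and 2725 in replicates 1, 2 and 3. The assembly factor Sdhaf3 had 17871, 6301 and 3355, and ND-39, a complex I subunit, had 2945, 16310 and 5705. The other 48 were in the strongest 3823 of no replicate. Of the 60, 44 had a weaker summit in the pooled list and 16 had none. A summit anywhere in the pooled list was found at 82.6% of members and 71.6% of all genes. The replicate counts were not made for all genes without an optimal summit, so they only describe the members.

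For 6 members more than 1 optimal summit was assigned, a count that was not made over all genes. The second summit of SdhC lay 1964 bp upstream of its start at rank 1721, and that of COX7AL2 lay 1406 bp upstream at rank 1334, with 1606, 1008 and 1167 in the replicates. The second summit of ND-ASHI, at rank 3591, was 1 bp upstream of one of its own starts.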
